A study of Schmidtea mediterranea with 2 samples.

Results

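Beads that captured both piwi-1 and mat2a were examined on a Slide-seqV2 puck of the planarian Schmidtea mediterranea. They were chosen by measured values, as bead barcodes with at least 50 unique molecular identifiers (UMIs, each counted as 1 captured RNA molecule) and at least 1 UMI each of SMED30007406 (piwi-1) and SMED30021445 (mat2a), which gave 169 of 8789 beads. Of the rest, 968 beads held piwi-1 without mat2a, 632 held mat2a without piwi-1, and 7020 held neither. The study sequenced 1 library of polyadenylated RNA from cryosections of worm fragments in 2 runs, and processed the reads once in the standard way and once with Syrah, software that corrects bead barcodes. The labels name no strain, treatment, age or number of animals. All values come from the Syrah-processed table of both runs unless another table is named. With 1 library there is no replicate error, and every interval given covers counting error only.

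In planarians, piwi-1 encodes a PIWI family protein and marks the neoblasts, the dividing stem cells that lie in the tissue around the gut and replace all cell types of the animal. The mat2a gene encodes methionine adenosyltransferase, the enzyme that makes S-adenosylmethionine, and serves in this study as the marker of intestinal cells. The planarian intestine is a branched tube whose branches run through the same tissue. A bead covers a small area that can hold several cells or part of one, so a bead with both genes is a place and not a cell.

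The address of a bead is its barcode, and a member can arise where the UMIs of a pair of barcodes are joined. Of the 169 members, 55 (32.5%) belonged to groups of barcodes 1 substitution and less than 10 coordinate units apart, against 2099 of all 8789 beads (23.9%). Of these members, 49 had UMIs on several barcodes of the group in the standard table, and in 1 case piwi-1 and mat2a lay on different barcodes. These are shown because the bead counted as a member only after they were joined, and the capital marks the base that differs, at position 14 from the start of the barcode.
kept barcode: tgggtaactatgcC
redirected barcode: tgggtaactatgcG
The kept barcode had 293 UMIs with 0 of piwi-1 and 1 of mat2a, and the redirected one, 2.15 units away, had 145 UMIs with 1 of piwi-1 and 0 of mat2a. With Syrah the bead had 471 UMIs with 1 of each gene.

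The members were deep beads that mostly held few UMIs of either gene. They had between 60 and 6388 UMIs with a median of 1063, against medians of 476.5 on piwi-1-only beads, 536 on mat2a-only beads and 153 on beads with neither gene. They therefore carried 6.79% of all UMIs on 1.92% of the beads (exact binomial 95% interval 1.65 to 2.23). Since the rule asks for both genes, it favours deep beads, and these values describe the choice. Just inside the limit of 50 UMIs, the shallowest members had 60, 148 and 151 UMIs. Just outside it, 0 of 6274 beads with 10 to 49 UMIs held both genes, although 55 held piwi-1 and 34 held mat2a.

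Exactly 1 UMI of each gene was found on 78 members, and 17 members held at least 2 of each. The members had 302 UMIs of piwi-1 and 221 of mat2a in total, and at most 15 of piwi-1 and 5 of mat2a on 1 bead. More piwi-1 than mat2a was counted on 58 members and more mat2a than piwi-1 on 28, while 83 had equal numbers. Members made up 14.9% of all 1137 beads with piwi-1 and 21.1% of all 801 beads with mat2a.

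The 17 beads with at least 2 UMIs of each gene had 333 to 4348 UMIs (median 1336), and 16 of them lay over tissue, that is, where enough of the surrounding barcodes held UMIs. Barcodes of 4 of them are shown because they differ in how the standard table held them.
rich bead 2: caggctaaaagtaa
rich bead 3: ttcaaaccccttcg
rich bead 4: gacctctataccga
rich bead 6: ttaaccgtcagatc
Rich bead 2 had 3267 UMIs with Syrah, with 3 of piwi-1 and 5 of mat2a, and 62 in the standard table, or 3148 there once the barcodes 1 substitution away were added. Rich bead 3 had 3114 UMIs with Syrah against 6 in the standard table, with or without such barcodes. Rich bead 6 had 2223 with Syrah against 2. Rich bead 4 had 2690 UMIs, with 5 of piwi-1 and 3 of mat2a, against 2517 in the standard table. The other barcode of rich bead 2 held 3086 UMIs in the standard table, with 3 of piwi-1 and 5 of mat2a. Its kept barcode held 0 of each, so the UMIs of both genes lay together under the other barcode. The barcodes that name large members thus included ones that were nearly empty and ones that already held most UMIs before barcode correction.

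**Figure D1:**
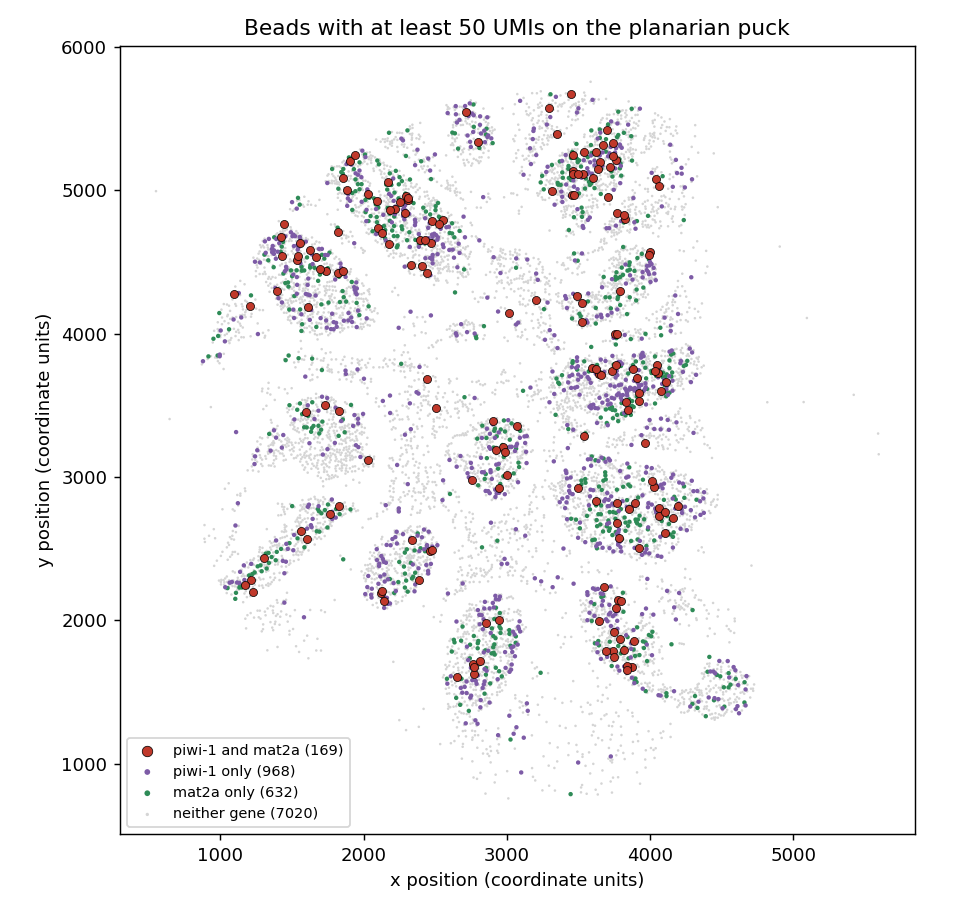
Positions of the 8789 beads with at least 50 UMIs, with x and y in the coordinate units of the deposited table. Each point is a bead, coloured by whether it held piwi-1 and mat2a (169 beads), piwi-1 only (968), mat2a only (632) or neither (7020), and the members are spread over most of the separate pieces of tissue.

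Fewer beads held both genes than their depth would give if the genes were placed independently. Beads were put in 20 groups of equal size by total UMIs, and the shares with piwi-1 and with mat2a were multiplied within each group. This gave 200.9 beads, against which 169 were observed, a ratio of 0.841 (exact Poisson 95% interval 0.719 to 0.978). The interval is that of the observed number and takes the expected one as fixed, although both come from the same beads. Whether such an interval holds 1 is therefore no test of independence. Beads of 540 to 1184 UMIs (depth groups 17 to 19) held 58 members for 77.9 expected. The deepest group, of 1184 to 6388 UMIs, held 73 for 80.7 expected, and the 16 shallower groups together held 38 for 42.3. Of the 12 groups with at least 1 member expected, 7 held fewer than expected, and the 8 others had too low an expectation to be read singly. When the 1947 beads of at least 500 UMIs were all thinned to 500, an average of 39.3 beads held both genes for 56.9 expected, a ratio of 0.692 (0.493 to 0.944). Thinned to 200 UMIs the ratio was 0.724 (0.437 to 1.13). Thinned to 1000 it was 0.843 (0.627 to 1.11), and both of these intervals held 1. Each thinned number is an average over possible draws and not a count, so its Poisson bounds are only a rough guide.

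The upper bound of the interval lay close to 1, and several other ways of counting gave an interval that held 1. With the expectation set within pieces of tissue (connected groups of at least 100 beads) the ratio was 0.883 and its interval held 1 (0.755 to 1.03), and without piece 1 it was 0.880 (0.746 to 1.03). The intervals also held 1 without piece 3 (0.872) and without piece 7 (0.863).

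**Figure D2:**
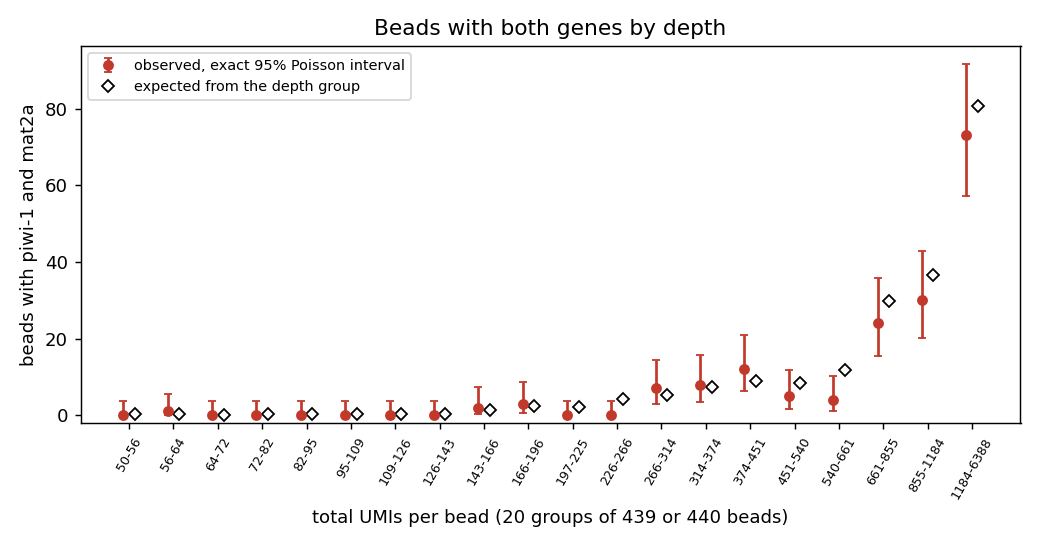
Number of beads with both piwi-1 and mat2a in 20 depth groups, with the observed number and its exact 95% Poisson interval (filled circles) beside the number expected from the group (open diamonds). Members are concentrated in the deepest groups, where 73 were observed and 80.7 expected in the last.

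Members were also more frequent over tissue. Of 5923 beads over tissue, 148 held both genes (2.50%), against 21 of 2866 off tissue (0.733%), at median depths of 241 and 127 UMIs. The single genes showed the same order, with piwi-1 on 14.4% of beads over tissue and 9.84% off it, and mat2a on 10.9% over and 5.41% off. The beads off tissue are no tissue-free background, since 1413 of them lay inside the connected pieces, with 11 of the 21 members. Of the 1453 off tissue and outside pieces, at a median of 90 UMIs, 10 held both genes (0.688%), 7.64% held piwi-1 and 3.30% held mat2a. Set against the depth groups of the whole puck, the 148 members over tissue stood for 165.6 expected (ratio 0.894, 0.756 to 1.05). The 21 off tissue stood for 35.3 (0.594, 0.368 to 0.908). With the gene shares of beads over tissue alone, 171.6 were expected over tissue (0.862, 0.729 to 1.01). Off tissue no expectation from its own gene shares was computed, so the ratio of 0.594 may include a difference in gene shares at equal depth. How far RNA that spread from elsewhere contributed to the members was not tested.

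The pair of piwi-1 and mat2a was set beside the other genes that the study lists as markers of the intestine and of stem cells. These identifiers carry no gene names in the sources used here. Per the study's methods, its known markers come from a single-cell RNA-sequencing atlas and not from this puck. The study had used the lists on these samples, and they were chosen here with earlier results known. They are therefore not independent evidence about these samples. The pairs include those of piwi-1 or mat2a with a listed gene, but not the pair of piwi-1 and mat2a itself. For 293 pairs of 1 intestine and 1 stem cell gene the median ratio of observed to expected beads was 0.984, with 185 pairs below 1. For 91 pairs of intestine genes it was 1.24, with 0 below 1, and for 210 pairs of stem cell genes it was 1.02. The ratio of piwi-1 and mat2a was 0.841, and 27 pairs across the lists had a lower one, among them 4 with piwi-1 and 2 with mat2a. The ratio has little room to leave 1 for genes found on most beads, such as SMED30013735 on 6892 of 8789, so that its order among these pairs was not read further.

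Pairs across the lists were below the expectation for piwi-1 with every intestine gene, but for mat2a with only some stem cell genes. With the 13 other intestine genes, piwi-1 had ratios of 0.771 to 0.962, with a median of 0.870, and all 13 were below 1. With the 20 other stem cell genes, mat2a had ratios of 0.739 to 1.28 with a median of 1.0, and 10 were below 1. The ends of that range came from genes on 334 and 148 beads. Stem cell genes on most beads, such as SMED30013735 (1.01), have little room to leave 1. How far the contrast between piwi-1 and mat2a reflects how common their partners are was not tested. Within its own list, piwi-1 had a median ratio of 1.06 and mat2a one of 1.28. These pairs share beads and are no separate samples.

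**Figure D3:**
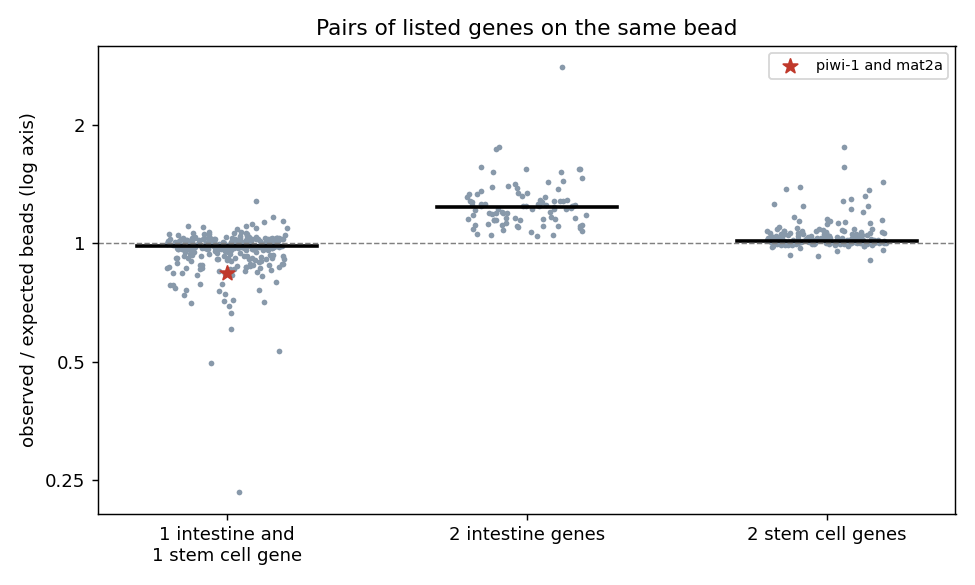
Ratio of observed to expected beads, on a log axis, for pairs of listed genes on the same bead, with 1 point for each pair and a line at the median of each kind. The star marks piwi-1 with mat2a (0.841), which lies below the median of 0.984 for pairs across the lists, while the pairs of intestine genes are all above 1.

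The profile of the members was compared with single-gene beads of the same depth, each member being paired with the bead nearest in total UMIs within 10%. A partner was found for 168 members among piwi-1-only beads and for 159 among mat2a-only beads, with 10 members of 2301 or more UMIs left without one. Levels as UMIs per 1000000 UMIs were computed without piwi-1 and mat2a, and are shares of each set's RNA and not absolute amounts. As a description of the genes that chose the beads, members had 300 UMIs of piwi-1 and the piwi-1-only partners 316 (0.946, 0.805 to 1.11), and members had 201 of mat2a and the mat2a-only partners 234 (0.838, 0.690 to 1.02). Both differences were within counting error. Members held more different genes, but the number includes piwi-1 and mat2a, so the choice of beads itself adds to it. Total UMIs of members were also 0.352% above those of the piwi-1-only partners and 2.52% above those of the mat2a-only partners. The median was 486.5 genes on members and 447.5 on piwi-1-only beads, and more genes were found on the member in 98 of 168 pairs. Against mat2a-only beads the medians were 451 on members and 427, and the member held more in 110 of 159 pairs.

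Intestine genes were higher on members than on piwi-1-only beads and lower than on mat2a-only beads. The 13 genes had 3619 UMIs on members and 2186 on the paired piwi-1-only beads, a ratio of 1.65 (exact conditional 95% interval 1.57 to 1.74), and the member was higher in 118 of 168 pairs. Against mat2a-only beads they had 3109 UMIs on members and 4427, a ratio of 0.686 (0.655 to 0.718), and the member was lower in 109 of 159 pairs. Without piece 3 the ratio to piwi-1-only beads was 1.52, and without piece 1 it was 1.81.

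All 13 intestine genes had a ratio above 1 over piwi-1-only beads, and 12 reached 1.5, where 22.0% of all 4121 genes with at least 10 UMIs did. The interval lay above 1 for 11 of the 13, where it did for 6.75% of all genes. An interval leaves 1 more easily for genes with many UMIs. The shares over all genes, here and below, were not matched to the listed genes by UMIs. The median ratio was 1.72 for the 13 genes and 0.997 for all genes. SMED30018252, the listed intestine gene with the most UMIs, had 1565 on members and 983 on piwi-1-only beads (ratio 1.59). SMED30000013 had the highest ratio, with 72 UMIs against 28 (2.56), and SMED30005670 the lowest, with 73 against 52 (1.40, 0.968 to 2.04).

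Against mat2a-only beads, 8 of the 13 had an interval below 1 and 0 had one above it, where 4.40% of all 3475 genes lay below and 5.93% above. At the fold of 1.5, 4 of the 13 were lower, where 19.2% of all genes were. SMED30018252 had 1362 UMIs on members and 1930 on mat2a-only beads (0.689). SMED30005670 again had the lowest ratio, with 58 UMIs on members and 140 (0.405). SMED30005571 alone had a ratio above 1, with 39 UMIs against 30 (1.27, 0.769 to 2.12).

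Stem cell genes differed less, and their pooled UMIs mainly through 1 gene. The 20 listed genes had 12466 UMIs on members and 10270 on mat2a-only beads, a ratio of 1.19 (1.15 to 1.22), and the member was higher in 104 of 159 pairs. Against piwi-1-only beads they had 14596 UMIs on members and 15699, a ratio of 0.927 (0.907 to 0.949), and the member was lower in 90 of 168 pairs. SMED30029763, the listed stem cell gene with the most UMIs on piwi-1-only beads, accounted for much of both differences. It had 3160 UMIs on members and 1514 on mat2a-only beads (2.04), and 3657 on members and 5425 on piwi-1-only beads (0.672). Without it the ratio to mat2a-only beads was 1.04, and that to piwi-1-only beads turned to 1.06 (1.03 to 1.09).

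The other stem cell genes followed in part. Over mat2a-only beads, 14 of the 20 had a ratio above 1, with a median of 1.13, where that of all genes was 0.999. Against piwi-1-only beads 9 of the 20 did, with a median of 0.975, where that of all genes was 0.997. Over mat2a-only beads, 6 of 20 had an interval above 1, where 5.93% of all genes did, and 0 had one below. Besides SMED30029763, SMED30014446 had 111 UMIs on members and 57 on mat2a-only beads (1.90), and SMED30001362 had 58 against 31 (1.83). SMED30013735, with 2359 UMIs on members and 2241 on mat2a-only beads (1.03, 0.970 to 1.09), showed no difference larger than its counting error. Over piwi-1-only beads 3 of 20 had an interval above 1, where 6.75% of all genes did, and 1 of 20, SMED30029763, had one below, which is close to the 5.14% of all genes. SMED30016196, which the study lists for both cell types, had 4027 UMIs on members and 4258 on piwi-1-only beads (0.943), and 3524 on members and 3455 on mat2a-only beads (0.996).

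**Figure D4:**
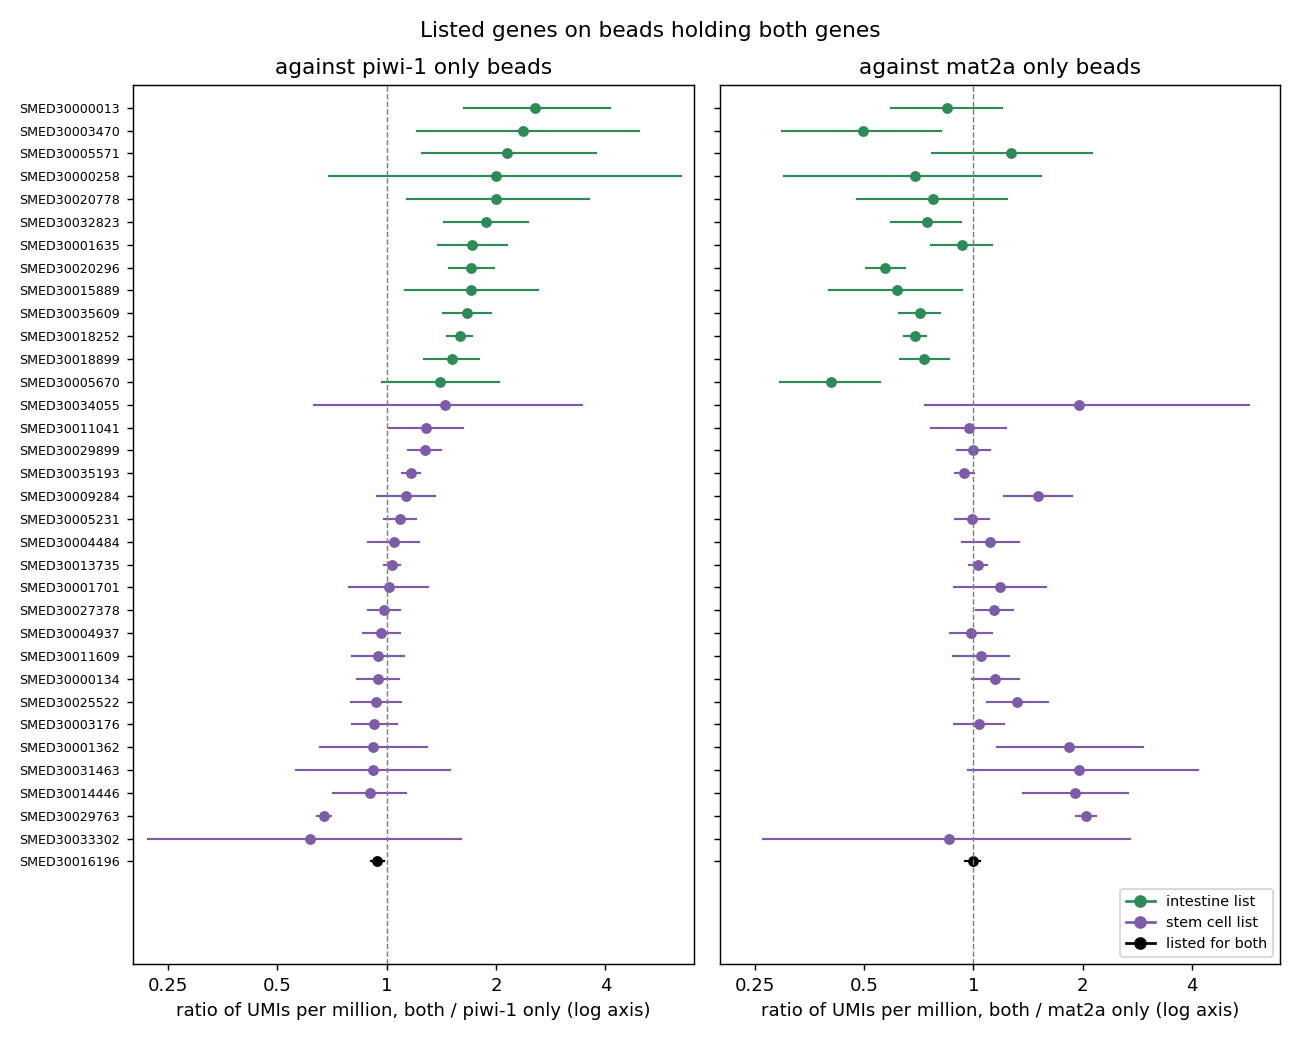
Ratio of UMIs per 1000000 UMIs on beads with both genes over depth-paired piwi-1-only beads (left) and mat2a-only beads (right), on a log axis, for each listed gene with its exact conditional 95% interval. Intestine genes lie right of 1 in the left panel and mostly left of 1 in the right panel, while SMED30029763 stands apart among the stem cell genes (0.672 and 2.04).

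Members thus lay between the single-gene beads for the intestine list. Over the 154 members with a partner in each of the 3 other groups, intestine genes made up 1.77% of UMIs on members, 1.12% on piwi-1-only beads, 2.59% on mat2a-only beads and 1.48% on beads with neither gene. Stem cell genes made up 6.99% on members, 7.60% on piwi-1-only beads, 5.87% on mat2a-only beads and 5.93% on beads with neither gene. Without SMED30029763 the other 19 stem cell genes made up 5.23% on members, 4.95% on piwi-1-only beads, 5.03% on mat2a-only beads and 4.60% on beads with neither gene, so that members were no longer between the single-gene groups. The level on members was between those of the single-gene groups for 12 of 13 intestine genes and for 12 of 20 stem cell genes. For all 535 genes with at least 100 UMIs the share was 61.1%, so that the stem cell genes did not stand out in this respect. Beads with neither gene also lay between the single-gene groups, at 1.48% for the intestine list and 5.93% for the full stem cell list. They did so for every listed intestine gene but SMED30015889. A level between the single-gene groups was therefore not particular to members.

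**Figure D5:**
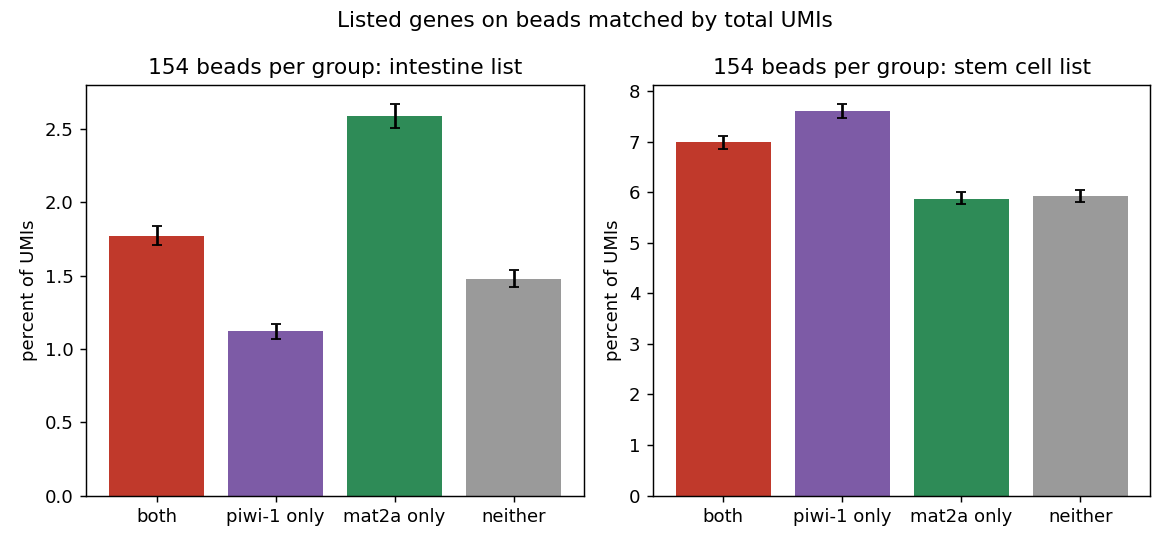
Percent of UMIs from the 13 listed intestine genes (left) and the 20 listed stem cell genes (right) on 154 beads of each group, paired by total UMIs, with exact 95% intervals for counting error. Members (both) have 1.77% and 6.99%, and lie between piwi-1-only and mat2a-only beads in both panels, but without SMED30029763 the stem cell list is highest on members (5.23%, against 4.95% and 5.03%). Beads with neither gene also lie between the single-gene groups in both panels.

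Members were also set, as a comparison chosen after seeing the data, beside beads with neither gene, with a partner of equal depth for 161 members. Intestine genes had 3316 UMIs on members and 2817 on beads with neither gene, a ratio of 1.15 (1.09 to 1.21), and stem cell genes had 13085 and 10779, a ratio of 1.18 (1.15 to 1.22). All 20 stem cell genes had a ratio above 1, with a median of 1.19, where the median of all 3608 genes was 1.06. The interval lay above 1 for 7 of the 20 stem cell genes and for 7 of the 13 intestine genes, where it did for 5.46% of all genes. Many UMIs let an interval leave 1 at a small ratio, as for SMED30013735 with 2510 and 2225 UMIs (1.10). How far the excess over all genes reflects abundance was not tested. It lay below 1 for 1 of the 13 intestine genes and 0 of the stem cell genes, where 4.52% of all genes did.

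Single members varied widely. All 169 held UMIs of both lists, whereas 15 of 154 paired piwi-1-only beads and 1 of 154 mat2a-only beads had no UMI of the intestine list. The intestine list made up 0.106% to 4.73% of a member's UMIs with a median of 1.75%, and the stem cell list 1.38% to 17.4% with a median of 6.83%. Of the 154 members, 36 were above the median intestine share of mat2a-only beads, 37 were below that of piwi-1-only beads, and 81 lay between. For the stem cell list, 61 were above the median of piwi-1-only beads, 39 below that of mat2a-only beads and 54 between.

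Across all genes, differences in both directions were counted. Over piwi-1-only beads 907 of 4121 genes were higher on members by at least 1.5 and 897 (21.8%) were lower, and over mat2a-only beads 808 of 3475 genes (23.3%) were higher and 666 lower. Many rest on few UMIs, and intervals left 1 for 278 and 212 genes, and for 206 and 153. Among genes with at least 50 UMIs, SMED30019175 had the highest ratio to piwi-1-only beads, with 72 UMIs on 40 members and 18 on 13 beads (3.99). The lowest was that of SMED30015515, with 12 UMIs on members against 79, of which 45 came from 1 bead. Over mat2a-only beads, SMED30034930 was highest with 46 UMIs on 25 members and 8 on 6 beads (5.62). SMED30013245 was lowest with 10 on 10 members and 62 on 13 beads (0.158), and 25 of those 62 came from 1 bead.

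The surroundings of members held more of the gene that their partners lacked. On other beads within 50 coordinate units, mat2a had a level of 377 UMIs per 1000000 around members and 278 around piwi-1-only beads, a ratio of 1.36 (1.13 to 1.63). Around members piwi-1 had a level of 665 UMIs per 1000000, against 417 around mat2a-only beads, a ratio of 1.60 (1.38 to 1.85). At least 1 bead with mat2a lay in that range of 125 members and of 98 of the 168 piwi-1-only partners. A bead with piwi-1 lay near 122 members and near 103 of the 159 mat2a-only partners. For the gene they shared, piwi-1 was 0.864 times as high around members as around piwi-1-only beads (0.766 to 0.974), but 1.01 times within 100 units. Around mat2a-only beads as the comparison, mat2a was 0.867 times as high (0.734 to 1.02), but 1.03 times within 30 units (0.785 to 1.35). With beads over tissue only, the ratios to piwi-1-only beads were 0.913 for piwi-1 (0.803 to 1.04) and 1.23 for mat2a (1.02 to 1.48). Those to mat2a-only beads were 1.67 for piwi-1 (1.42 to 1.96) and 0.865 for mat2a (0.724 to 1.03). These neighbours overlap between beads, which the intervals do not take into account.

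The nearest other member was at a median of 59.0 units, the nearest piwi-1-only bead at 31.7 and the nearest mat2a-only bead at 40.1, while the nearest bead of any kind was at 16.4. Members were found in 15 of 16 connected pieces of tissue of at least 100 beads, which held 155 of the 169. The number per piece ran from 0 to 26 and the ratio to the expectation from 0 to 2.51. The ratio was below 1 in 10 pieces, and its interval held 1 in 15. Piece 12 had 7 members for 15.1 expected from the depth groups of the whole puck (0.464, 0.187 to 0.957), but 7.88 were expected from its own gene shares. The labels do not say whether pieces come from different animals.

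Many members did not hold both genes in the standard table. With Syrah, 165 of the 169 held both genes in the first run alone. In the standard table of both runs 92 (54.4%) did, 54 had fewer than 50 UMIs and 10 had none. With barcodes 1 substitution and less than 10 coordinate units apart added together, 122 (72.2%) held both genes there. A further 27 still had fewer than 50 UMIs. The study's own limit for such barcodes is 10 micrometres, and the unit of the positions is not stated. Barcodes of the same bead that lay further apart may therefore have been left out of the sums for these 27. Those 27 had 176 to 3114 UMIs with Syrah, and 23 of them lay over tissue. Their median intestine share was 1.68%, against 1.75% on the other 142 members, and their median stem cell share was 6.98% against 6.78%. The ratio of observed to expected beads was 0.868 in the Syrah-processed table of the first run and 0.857 in the standard table of both runs, and both intervals held 1. The tables share reads, so that these are no independent repeats.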

How the data were processed

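The authors deposited raw UMI counts, as whole numbers for every gene on every barcode, for 1 Slide-seqV2 library sequenced in 2 runs. Per the study's methods, version 3.1.2 of the WARP pipeline for Slide-seqV2 made them from the original reads (standard) and from reads corrected with Syrah. The genome named in the methods is schMedS3, and gene identifiers in the tables begin with SMED30. Positions were deposited without a stated unit. The 4 tables held 2461559 to 3364828 UMIs, and the table used here, Syrah-processed and of both runs, held 3364828.

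Counts were analysed with python 3.11.15, numpy 2.4.6, scipy 1.17.1 and pandas 2.3.3. Expected numbers came from 20 depth groups. Pairing was by total UMIs within 10%, without reuse. Ratios have exact conditional, numbers exact Poisson and shares exact binomial 95% intervals, all for counting error only, and no p-value was computed from beads. Intervals of observed over expected numbers take the expected number as fixed, and those of thinned numbers are approximate. Tissue was taken to lie under a bead if, of the 50 barcodes closest to it, 25% or more had 10 or more UMIs in the standard table of the first run. Pieces were beads linked at up to 40 units. Genes were compared with at least 10 UMIs over both sets. The text names piwi-1, mat2a, genes of the study's marker list, and up to 2 identifiers at each end of a comparison with at least 50 UMIs. The members and lists were chosen with earlier results of these data known. Thinning, pairing within pieces, leaving out pieces for the gene lists and the comparison with beads of neither gene were chosen after seeing the data. The scripts were tested on simulated data.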

Additional observations from a re-analysis of the deposited data

How the results depend on the processing

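Of 151 alternative values, 124 stayed within the limits set for a change, 25 were counted as moved and 2 as turned in direction. The cause was not tested unless the alternative's construction shows it. The ratio of observed to expected members was 0.577 with 1 gene share for the whole puck, which ignores depth, 0.647 for at least 2 UMIs of each gene (17 beads for 26.3, interval 0.377 to 1.04) and 0.692 with beads thinned to 500 UMIs. Thinned to 200 or 1000 UMIs it was 0.724 or 0.843, with intervals that held 1. Leaving out each piece in turn gave 0.823 to 0.880. The same gave 1.52 to 1.81 for intestine genes and 0.900 to 0.972 for stem cell genes over piwi-1-only beads, and 1.16 to 1.21 for stem cell genes and 0.656 to 0.713 for intestine genes over mat2a-only beads. In the standard table with duplicated barcodes summed, intestine genes were at 1.45 and stem cell genes at 0.965 over piwi-1-only beads, and stem cell genes at 1.23 over mat2a-only beads. Without SMED30029763 the stem cell ratios were 1.06, which turned direction, and 1.04. The mean over beads gave 1.22 for stem cell genes over mat2a-only beads, and pairing within pieces gave 0.952 for stem cell genes over piwi-1-only beads. A minimum of 20 UMIs left 426 genes higher and 336 lower than on piwi-1-only beads, and 315 and 263 against mat2a-only beads, since fewer genes were tested. A fold of 2 left 417 and 451, and 430 and 282. Within 30 units mat2a was at 1.65 around members over piwi-1-only beads and at 1.03 over mat2a-only beads, and piwi-1 at 1.87 over mat2a-only beads. The 1.03 lies on the other side of 1 from the main value of 0.867, although it was counted as moved, and both intervals held 1. Within 100 units piwi-1 was at 1.14 over mat2a-only beads and at 1.01 over piwi-1-only beads, which turned direction. At this depth, 78 members rest on 1 UMI of each gene. No paired analysis was possible because the data are 1 library.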

Other observations

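The members with more mat2a than piwi-1 had a median intestine share of 1.89%, those with equal numbers 1.72% and those with more piwi-1 1.63%. Their median stem cell shares were 6.48%, 6.67% and 7.32% in the same order. These are values of groups set by the rule's own genes, over 28, 83 and 58 beads of 1 library, and were not tested.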
